A study of Mus musculus with 67 samples.

Results

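The 10 genes described here are *S100a4*, *S100a6*, *S100a10*, *S100a11*, *Lgals1*, *Lgals3*, *Anxa1*, *Anxa2*, *Vim* and *Cd44*, the S100, annexin and galectin activation genes of T cells with vimentin and CD44. They were chosen by name and are 10 of the 24530 genes counted in the larger of 2 RNA sequencing experiments on T cells from the mouse brain. The same 10 symbols stand among the 24421 gene symbols counted in the smaller pilot experiment. S100 proteins are small proteins that bind calcium and then attach to other proteins, among them the annexins, which bind membranes when calcium is high. Galectins bind sugar chains on cell-surface proteins, vimentin builds the intermediate filaments that give a cell its stiffness, and CD44 is a surface receptor for hyaluronan. T cells that have met their antigen and become effector or memory cells hold more of these transcripts than naive T cells do.

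The study follows CD4 T cells of the hypothalamus, the brain region that sets food intake, in mice on a standard diet (SD) or on a high-fat, high-sugar (HFHS) diet. In the larger experiment regulatory T cells (Treg) and activated conventional T cells (Tconv) were sorted by flow cytometry from pooled mice of a Foxp3 GFP reporter line, which glows green where the Treg factor Foxp3 is made. The mice were 6 weeks old when the diets began, and those labelled Balb/c were female while those labelled C57Bl/6J were male, so strain and sex cannot be told apart. Tconv were sorted for high CD44 and low CD62L protein without CD25 or Foxp3 GFP. This makes CD44 part of the gate, and the level of *Cd44* in Tconv is no finding about the cells. High CD44 with low CD62L is also how the study marks effector memory T cells. The pilot used pools of female mice, genetically obese ob/ob mice with C57Bl/6J wild-type controls and Balb/c Foxp3 GFP mice on either diet, so its C57Bl/6J mice differ in sex from those of the larger experiment.

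Of the 59 libraries of this experiment, 29 are Tconv and 30 are Treg. The hypothalamus gave 16 Tconv and 16 Treg libraries, and the brain without its hypothalamus, called brain from here on, gave 13 and 14. Each combination of cell type, tissue, strain and diet holds 4 libraries, except 3 each for brain Tconv of C57Bl/6J mice on HFHS diet and of Balb/c mice on either diet, and 2 for brain Treg of Balb/c mice on SD. Total counts ran from 13196689 to 20538309 in hypothalamic Tconv and from 11340063 to 28187008 in brain Tconv. They ran from 8938477 to 24985589 in brain Treg and from 1724149 to 38482277 in hypothalamic Treg. The median number of genes with more than 10 counts was 4479.5 in hypothalamic Treg, against 9609 in hypothalamic Tconv, 10783 in brain Tconv and 8817.5 in brain Treg, so the hypothalamic Treg libraries see far fewer genes than the rest. In bulk samples such as these, fewer cells with a transcript and less of it in each cell cannot be told apart.

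By *Foxp3* the sorted cells carry the transcripts of their names, with 4 exceptions. *Foxp3* lay between 0.0 and 13.55 CPM (counts scaled to library size) in the 29 Tconv libraries and between 27.93 and 1049.6 CPM in 26 of the 30 Treg libraries. The other 4 Treg libraries, all from hypothalamus, held less than 10 CPM of *Foxp3*. In the Balb/c SD library of pool 32_36 (*Foxp3* 0.102 CPM) 7 microglial genes summed to 20938.6 CPM and 8 macrophage genes to 4577 CPM, which marks it as a library with brain immune cells other than T cells. In the C57Bl/6J SD library of pool 11_15 (*Foxp3* 1.15 CPM) 8 T-cell genes summed to only 192.5 CPM and 5 endothelial genes to 4169 CPM. The C57Bl/6J SD library of pool 43_47 (*Foxp3* 2.61 CPM) is the one with 1724149 counts, and the C57Bl/6J HFHS library of pool 06_10 (*Foxp3* 0.696 CPM) held 14740.7 CPM of the T-cell genes. The whole list of 8 Treg genes, *Foxp3* among them, summed to 13470.2 CPM in pool 06_10, 4909.5 CPM in 43_47 and 4556.7 CPM in 32_36, against at most 1369 CPM in any Tconv library, and to 405.6 CPM in 11_15. By that list 3 of the 4 are like Treg and 1 is not. These 4 libraries are kept in the tests below. Results without them are also given for the comparisons of Treg with Tconv and of hypothalamus with brain. For strain, diet and diet by strain in hypothalamic Treg, the main test, edgeR, called 0 of the 10 genes without them. The correlations in Treg are given only with all libraries. Among the Tconv, the library that stands apart is the hypothalamic Tconv library of C57Bl/6J SD pool 11_15, where *S100a10* was 519 CPM, *S100a11* 457.5 CPM and *S100a4* 199.9 CPM, the lowest of all 16.

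Compared per unit of transcript length, in TPM, the members fall into a high and a low group. In brain Tconv the median was highest for *S100a11* (4368 TPM, rank 19 of all genes), which codes for a partner of annexin A1, and for *S100a10* (3361 TPM), which codes for the partner of annexin A2. *Lgals1*, the gene of galectin-1, followed at 2045 TPM, then *S100a4* and *S100a6*, which code for binders of the cytoskeleton and of annexins, at 1664 and 1584.5 TPM. These 5 genes are among the 100 most abundant transcripts of the cells. *Anxa2*, which codes for annexin A2, stood at 353 TPM, *Vim* at 296 TPM and *Anxa1*, the gene of the anti-inflammatory annexin A1, at 207 TPM. *Lgals3*, the gene of galectin-3, reached 126 TPM and *Cd44* 39.1 TPM, the lowest median of the 10.
The order in hypothalamic Tconv was the same except that *Vim* (469 TPM) and *Anxa2* (453 TPM) changed places. In brain Treg *S100a10* came first at 4776 TPM, rank 13 of all genes, and *Anxa1* came last at 26.9 TPM. In hypothalamic Treg the medians of *Anxa1* and *Lgals3* were 0.0516 and 0.0 TPM, where 7 and 10 of the 16 libraries held no count at all. The 4 S100 genes are thus abundant in each cell type. Whether the low medians of *Anxa1* and *Lgals3* in hypothalamic Treg go with the few genes that these libraries see was not tested.

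**Figure D1:**
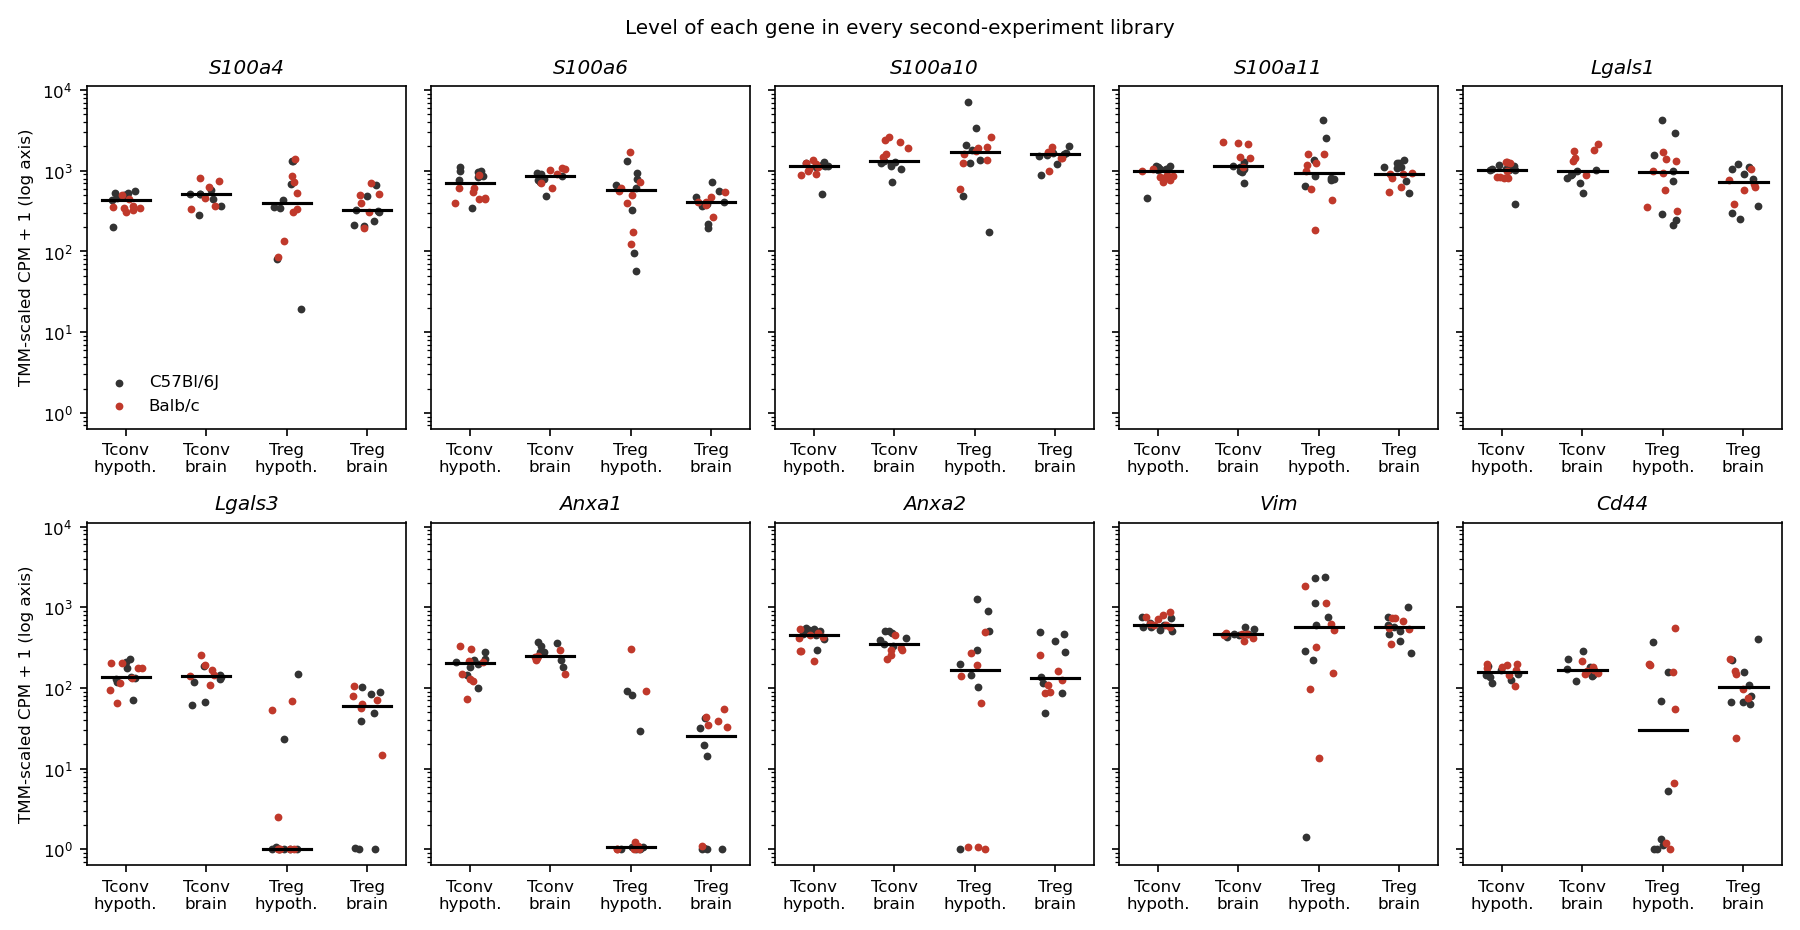
TMM-scaled CPM of the 10 genes in each of the 59 libraries by cell type and tissue, with a bar at the median. Median *Anxa1* was 250.8 CPM in brain Tconv and 24.7 CPM in brain Treg.

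Whether Treg and Tconv of the same tissue differ was tested over all strains and diets, first in brain. With the edgeR quasi-likelihood test and Benjamini-Hochberg adjustment over 13956 genes, 5 of the 10 genes were lower in Treg and 0 higher, while 2094 genes, 15% of those tested, were called and 11% were called lower. Among the annexins, *Anxa1* was 0.0, 24.7 and 53.4 CPM (lowest, median, highest) in 14 Treg libraries, 3 of them at 0, and 149, 250.8 and 371 CPM in 13 Tconv libraries. The ranges of *Anxa1* do not overlap, and its log2 fold change of -3.86 (SE 0.833, adjusted p 0.00178, edgeR with Benjamini-Hochberg) is the largest of the 10. *Anxa2* was 47.98, 130.3 and 487 CPM in Treg and 226, 347 and 512 CPM in Tconv, with a log2 fold change of -1.08 (SE 0.274, adjusted p 0.00639, edgeR with Benjamini-Hochberg) and ranges that overlap in their upper part. Among the 10 genes only *Anxa1* had ranges without overlap, and the share of all tested genes without overlap was not counted.
Among the S100 genes, *S100a6* was 197, 411 and 733 CPM in Treg against 482, 855 and 1067 CPM in Tconv, and *S100a11* was 529, 912 and 1354 CPM against 696, 1131.5 and 2273 CPM. The log2 fold changes in edgeR were -1.10 for *S100a6* (SE 0.16, Benjamini-Hochberg adjusted p 1.92e-05) and -0.58 for *S100a11* (SE 0.175, adjusted p 0.0215), and the ranges of each gene overlap between the cell types. *Lgals1* was 249.2, 727 and 1216 CPM in Treg and 525, 1002 and 2122 CPM in Tconv, also overlapping, with a log2 fold change of -0.75 in edgeR (SE 0.226, Benjamini-Hochberg adjusted p 0.0216). The calls for *S100a11* and *Lgals1* hang on single libraries, which those for the other 3 genes do not. Without the Tconv library of C57Bl/6J SD pool 01_05 only 3 of the 10 genes were called, *S100a11* with an adjusted p of 0.0516 and *Lgals1* with 0.0589 in edgeR with Benjamini-Hochberg, over all 27 such fits between 0.01 and 0.0516 for *S100a11* and between 0.0141 and 0.0589 for *Lgals1*. *Lgals1* was also lost without the Treg libraries of Balb/c HFHS pools 16_20 (adjusted p 0.0568) and 15_21 (adjusted p 0.0526). With pool as a replicate block only 4 of the 5 genes were called, among 1767 of 13956 genes.
The other 5 genes were not called in brain. *S100a4* (log2 fold change -0.46, edgeR Benjamini-Hochberg adjusted p 0.119) and *Lgals3* (-1.51, adjusted p 0.149) pass only before adjustment, with p 0.024 and 0.0326. *Cd44* (-0.44), *S100a10* (-0.02) and *Vim* (0.27) had unadjusted p above 0.05. Limma-voom called 8 of the 10 genes in brain, the 5 above and *S100a4*, *Lgals3* and *Cd44*. It called 3492 of 13956 genes in all, with the median log2 fold change of all genes at -0.782. In the edgeR fit the median of the 10 genes was -0.67, against -0.26 for all tested genes. Whether the members share a shift of all genes was not tested. The 1193 tested genes shorter than 1000 bases had a median of -0.589 and 21% of them were called lower, so *S100a11* and *Lgals1*, which are that short, lie near what short transcripts do here. With the trend of each library over transcript length taken out the same 5 genes were called, *S100a11* at -0.502 (adjusted p 0.0153) and *Lgals1* at -0.734 (adjusted p 0.0209, edgeR with Benjamini-Hochberg). Tested by strain, C57Bl/6J libraries alone gave 1 of the 10 genes, *S100a6*, among 408 called genes, and Balb/c libraries alone gave 7 among 2404. *Anxa1* and *Anxa2* kept their direction without a call in C57Bl/6J libraries, at -4.686 (adjusted p 0.0723) and -0.938 (adjusted p 0.369), against -2.934 and -1.288 in Balb/c libraries (edgeR with Benjamini-Hochberg). The log2 fold changes of *S100a11* and *Lgals1* were -1.23 and -1.32 in Balb/c libraries and -0.05 and -0.29 in C57Bl/6J libraries, and whether the strains differ in this gap was not tested.

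In the hypothalamus the same comparison called 0 of the 10 genes, with 872 of 11283 tested genes called (7.73%). At unadjusted p below 0.05 edgeR gave 3, *S100a10* higher in Treg (log2 fold change 0.56, p 0.0235) and *Anxa1* (-2.67, p 0.0344) and *Lgals3* (-3.05, p 0.0184) lower. DESeq2 called 0 of the 10, with 1605 of 9791 genes called. Limma-voom called 5, with 7329 of 11283 genes called, on a scale where the median of all genes lies at -3.60 instead of -0.59. *Anxa1* was 0.0, 0.0671 and 299 CPM in 16 Treg libraries, 7 of them at 0, and 71.4, 201 and 329 CPM in 16 Tconv libraries. *Lgals3* was 0.0, 0.0 and 146 CPM in Treg, 10 of the 16 libraries at 0, and 63.3, 135 and 227 CPM in Tconv. The ranges of the 2 genes overlap, since some Treg libraries reach Tconv levels while others hold none. *S100a10* was 174, 1697 and 7189.8 CPM in Treg and 519, 1141 and 1348 CPM in Tconv, the widest range in CPM of any member, though not relative to its level. Without the 4 *Foxp3*-low libraries edgeR called 2 of the 10, *Lgals3* and *S100a10*, among 1742 genes, and the 12 Treg libraries left held 1249.7, 1779 and 3392.5 CPM of *S100a10*, its lowest value now above the Tconv median. In the leave-one-out fits the count rose from 0 to 1 without the C57Bl/6J SD Treg library of pool 43_47 and to 1 without that of pool 11_15. With all libraries kept, the fit with no filter and the one with pool as a block each called 2, *Anxa1* and *Lgals3*. The first called 1549 of 18912 genes in all and the second 5543 of 11283. With the length trend taken out 5 were called, among 1135 of 11283 genes. They are the short members *S100a4*, *S100a6*, *S100a10*, *S100a11* and *Lgals1*, all lower in Treg, the reverse of the sign of *S100a10* above. The hypothalamic result for the members therefore changes with the libraries kept and with the fit.

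The next question is whether T cells of the same type differ between hypothalamus and brain. In Tconv, edgeR with Benjamini-Hochberg adjustment called 4 of the 10 genes, 1 higher and 3 lower in hypothalamus, while 2162 of 12833 genes were called (16.8%), 5.66% higher and 11.2% lower. With pool as a replicate block 0 of the 10 and 115 genes were called, so all 4 calls are lost in that setting. Pool numbers recur between tissues and cell types within a strain and diet, and whether equal numbers stand for the same mice is not given in the sources used here. *Vim* was 509, 607.5 and 881 CPM in 16 hypothalamic libraries and 380.3, 459 and 572 CPM in 13 brain libraries, a log2 fold change of 0.44 (SE 0.086, adjusted p 0.000596, edgeR with Benjamini-Hochberg) with overlapping ranges. *S100a10* was 519, 1141 and 1348 CPM against 731, 1301.6 and 2622 CPM, and *S100a11* was 457.5, 1003.5 and 1151 CPM against 696, 1131.5 and 2273 CPM. Their edgeR log2 fold changes were -0.51 (SE 0.13, Benjamini-Hochberg adjusted p 0.00592) and -0.56 (SE 0.14, adjusted p 0.00438), and the ranges overlap widely. These 2 changes are close to those of short transcripts at large, for the 1119 tested genes shorter than 1000 bases had a median of -0.469 and 28.2% of them were called lower. With the length trend taken out the 2 genes were still called, at -0.228 (adjusted p 0.00187) and -0.196 (adjusted p 0.00565, edgeR with Benjamini-Hochberg), with smaller changes. *Anxa1* was 71.4, 201 and 329 CPM against 149, 250.8 and 371 CPM, a log2 fold change of -0.48 in edgeR (SE 0.165, Benjamini-Hochberg adjusted p 0.0432). This last call is the least steady, since it was lost in 16 of 29 leave-one-out fits, in which the adjusted p ran from 0.0166 to 0.0824 and was highest without the brain library of Balb/c HFHS pool 47_25.
By strain, the lower *S100a10* and *S100a11* of hypothalamic Tconv were seen in the Balb/c libraries, and whether the strains differ in this was not tested. The median of *S100a10* was 1158.5 CPM in hypothalamus and 1203 CPM in brain in C57Bl/6J mice, but 1081 and 2071 CPM in Balb/c mice. For *S100a11* the medians were 1056 and 1046 CPM in C57Bl/6J mice and 845 and 1793 CPM in Balb/c mice. In C57Bl/6J libraries alone edgeR called 0 of the 10 genes and 1 gene of 11486, with 2 of the 10 at unadjusted p below 0.05, and in Balb/c libraries alone it called 6 of the 10 among 3014 genes. *Vim* kept its direction in each strain, with 0.31 in C57Bl/6J and 0.53 in Balb/c mice. In Treg 0 of the 10 genes were called between tissues, 0 of them at unadjusted p below 0.05, while 621 of 12602 genes were called (4.93%). DESeq2 called 0 of the 10 and limma-voom 2, the latter among 4734 of 12602 genes, and 0 were called by edgeR without the 4 *Foxp3*-low libraries.

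**Figure D2:**
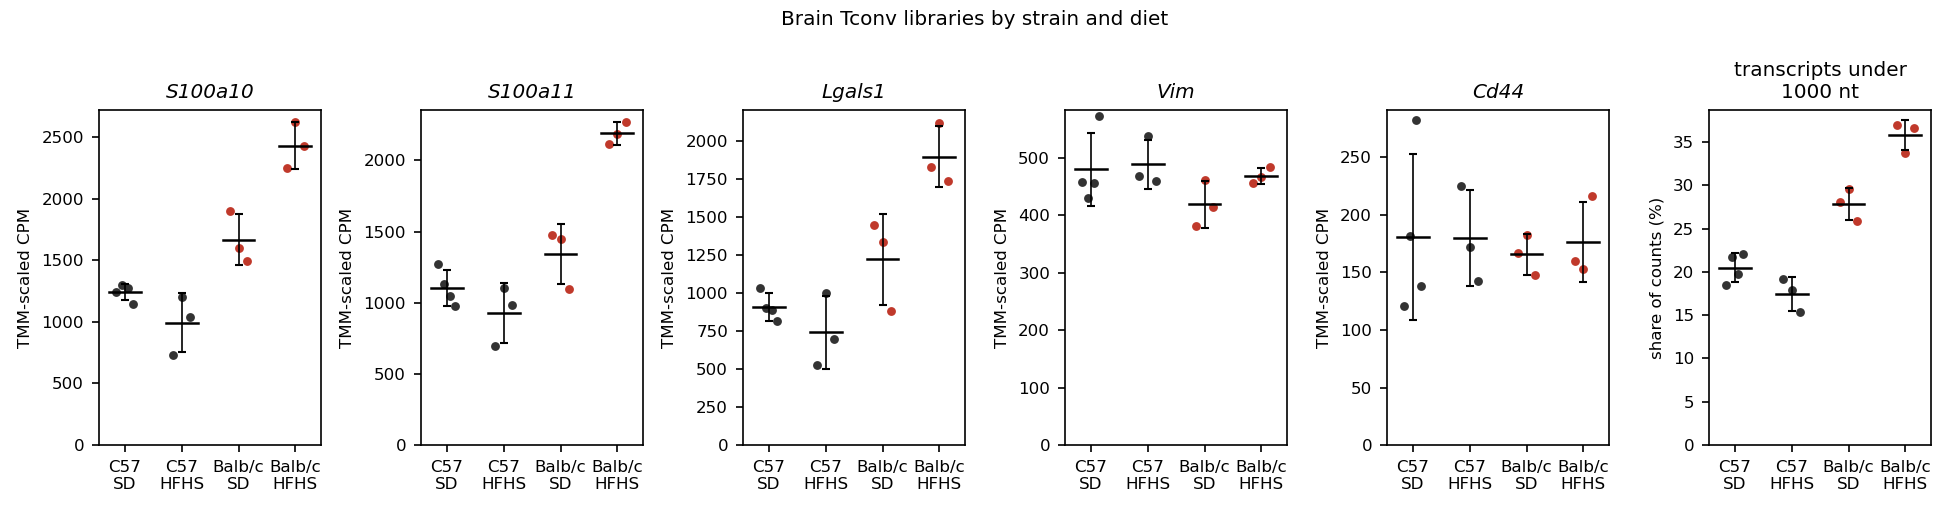
*S100a10*, *S100a11*, *Lgals1*, *Vim* and *Cd44* in the 13 brain Tconv libraries by strain and diet (bars, mean and SD), beside the percent of counts on short transcripts. *S100a11* was 2114, 2182 and 2273 CPM in the 3 Balb/c HFHS libraries.

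Between the strains, edgeR with all libraries called members only in brain Tconv. There it called 3 of the 10 genes, all higher in Balb/c mice, with 2887 of 12287 genes called (23.5%), 12.2% higher. *S100a10* was 1497, 2071 and 2622 CPM in 6 Balb/c libraries and 731, 1203 and 1301.6 CPM in 7 C57Bl/6J libraries, 2 ranges without overlap, with a log2 fold change of 0.88 (SE 0.167, adjusted p 0.000821, edgeR with Benjamini-Hochberg). *S100a11* was 1098, 1793 and 2273 CPM against 696, 1046 and 1271 CPM, and *Lgals1* was 882.5, 1595 and 2122 CPM against 525, 889.5 and 1035 CPM. Their edgeR log2 fold changes were 0.78 (SE 0.181, Benjamini-Hochberg adjusted p 0.00403) and 0.91 (SE 0.195, adjusted p 0.00215), with ranges that overlap at their ends. The share of all tested genes without overlap between the strains was not counted. *Anxa2* was the nearest in the other direction (-0.43, edgeR Benjamini-Hochberg adjusted p 0.0582). In hypothalamic Tconv 0 of the 10 genes were called, with 228 of 10875 genes called (2.1%) and only *S100a6* at unadjusted p below 0.05 (-0.64, p 0.00401). DESeq2 and limma-voom each called that 1 gene, and the count of 0 became 3 without the C57Bl/6J SD library of pool 11_15 and 1 without the Balb/c SD library of pool 32_36. In Treg 0 of the 10 differed between strains in hypothalamus (3 of 7715 genes called, 0.0389%) or brain (35 of 11711, 0.299%), 0 of them at unadjusted p below 0.05 in either, and 0 by DESeq2 or limma-voom. Whether the strain difference of the 3 genes itself differs between tissues or cell types was not tested.

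These 3 genes share a property with many others that differ in brain Tconv, a short transcript. The mean lengths are 504 bases for *S100a11*, 650 for *S100a10* and 800 for *Lgals1*, against 4408 for *Cd44*. The other 2 short members do not follow them, for *S100a4* (499 bases) stood at 0.239 (adjusted p 0.459) and *S100a6* (719 bases) at 0.216 (adjusted p 0.411) in edgeR with Benjamini-Hochberg. Transcripts shorter than 1000 bases took 25.9, 31.7 and 36.99% of all counts (lowest, median, highest) in the 6 Balb/c brain Tconv libraries, but 15.3, 19.2 and 22.1% in the 7 of C57Bl/6J mice and 12.02, 18.95 and 28.05% in all 53 other libraries. Of the 1042 tested genes shorter than 1000 bases, 49.9% were called higher in Balb/c brain Tconv, with a median log2 fold change of 0.92, so a rise of this size is the common behaviour of short transcripts in these libraries. In TPM, where each library's own length profile enters, *S100a10* was 3303, 3816 and 3966 in Balb/c and 2643, 3301 and 3503 in C57Bl/6J brain Tconv, and *S100a11* was 3931, 4613 and 5406 against 3676.5, 4268 and 4916. The ranges then overlap for each of them, and for *Lgals1* as well (1613, 2119 and 2398 against 1412, 1748 and 2079.5 TPM). With the trend of each library over transcript length taken out of the edgeR fit, the log2 fold changes became -0.08 for *S100a10*, -0.40 for *S100a11* and 0.11 for *Lgals1*. The adjusted p of these fits was 0.504, 0.00165 and 0.536 in edgeR with Benjamini-Hochberg, while over the settings without a length trend it ran from 4.15e-07 to 0.000821, 1.98e-05 to 0.00403 and 8e-07 to 0.00215. This fit called 4 of the 10 members, all lower in Balb/c mice, among 2203 of 12287 genes called. They are *S100a11* and 3 that the main fit did not call, *S100a4*, *S100a6* and *Anxa2*. A gain of the 3 transcripts in Balb/c brain Tconv beyond that of other short transcripts was therefore not seen, and the cause of the surplus of short transcripts was not tested.

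Whether the HFHS diet moves the members was tested in each tissue and cell type with strain in the model. In edgeR 0 of the 10 genes were called in any of the 4 comparisons, and neither was any other gene (0.0% each of 10875 genes in hypothalamic Tconv, 7715 in hypothalamic Treg, 12287 in brain Tconv and 11711 in brain Treg). At unadjusted p below 0.05 edgeR gave 406, 213, 591 and 853 genes, DESeq2 called 16, 180, 12 and 327, and limma-voom called 0, 4, 1 and 16, with 0 of the 10 members called by either tool. In the edgeR fits above, members with unadjusted p below 0.05 were found only in hypothalamic Treg, where *Lgals1* (1.24, p 0.0422) and *S100a10* (1.02, p 0.0358) had higher levels on HFHS diet. In hypothalamic Treg DESeq2 and limma-voom also gave 2 such members each. There was 1 without the 4 *Foxp3*-low libraries and 1 with the length trend taken out. There were 0 with DESeq2 size factors, with no filter or without low-complexity libraries, so the count is not steady. Brain Treg had 5 such members with the length trend taken out, 3 with no filter and 2 with limma-voom. The signs lean upward, with 9, 10, 8 and 9 of the 10 genes above 0, on a median of all genes of -0.01, 0.19, -0.02 and 0.10. In the leave-one-out fits the count stayed at 0 in each of the 4. A diet effect common to the strains was thus not found for any member.

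A diet effect that differs between the strains was tested as well. In brain Tconv edgeR called 1 of the 10 genes, *S100a11*, with 75 of 12287 genes called (0.61%). Its levels were 2114, 2182 and 2273 CPM in Balb/c mice on HFHS diet and 1098, 1449 and 1473 CPM in Balb/c mice on SD. In C57Bl/6J mice they were 696, 985.5 and 1104 CPM on HFHS diet and 974, 1046, 1131.5 and 1270.6 CPM on SD. *S100a11* thus had higher values on HFHS diet than on SD in Balb/c mice without overlap, and overlapping values in C57Bl/6J mice. The difference between the 2 log2 changes was 1.04 (SE 0.229, adjusted p 0.0493, edgeR with Benjamini-Hochberg). The share of all tested genes without overlap between the diets was not counted. *S100a10* (0.95, edgeR Benjamini-Hochberg adjusted p 0.0513), *S100a4* (1.11, adjusted p 0.0826), *Lgals1* (1.01, adjusted p 0.0867) and *Anxa1* (0.997, adjusted p 0.0981) leaned the same way without being called, and 6 of the 10 had an unadjusted p below 0.05. DESeq2 called 5 of the 10, among 668 of 12087 genes, and limma-voom 4, among 216 of 12287. The call is fragile, since *S100a11* was lost in 11 of 13 leave-one-out fits, with an adjusted p from 0.0286 to 0.198 that was highest without the Balb/c SD library of pool 42_46, and the number of called members ran from 0 to 4, the 4 without the C57Bl/6J HFHS library of pool 38_42. Genes shorter than 1000 bases had a median of 0.79 in this comparison, and with the trend over transcript length taken out 0 of the 10 genes were called, 2 of them at unadjusted p below 0.05, and *S100a11* stood at 0.12. The difference in diet response is therefore again shared by short transcripts at large. In hypothalamic Tconv, hypothalamic Treg and brain Treg edgeR called no gene for this question, with 493, 1295 and 662 genes at unadjusted p below 0.05 and 0, 3 and 0 of the members among them. DESeq2 called 0, 2 and 0 of the members there, the 2 being *Lgals3* and *S100a6*, and limma-voom 0 in each. In hypothalamic Treg, where the 2 were called, DESeq2 called 1328 of 6991 genes in all.

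Whether the gap between Treg and Tconv differs by tissue was tested over all 59 libraries. EdgeR called 1 of the 10 genes, *S100a11*, with 1907 of 14764 genes called (12.9%). The difference between tissues was 0.97 on the log2 scale (SE 0.332, adjusted p 0.0381, edgeR with Benjamini-Hochberg). The median levels, 934 CPM in Treg and 1003.5 CPM in Tconv of the hypothalamus and 912 and 1131.5 CPM in brain, do not show a difference of that size. The means lie further apart, at 1245.7 CPM in Treg and 935.6 CPM in Tconv of the hypothalamus and 935.7 and 1368.9 CPM in brain. The call is not steady, for DESeq2, its size factors and the fit with no filter each called 0 of the 10. Limma-voom called 3 others (*Cd44*, *Lgals3* and *Vim*), among 5913 of 14764 genes. The fit with pool as a block called only *Lgals3* of the 10, among 1241 genes. Without the 4 *Foxp3*-low libraries edgeR called 3, which are *S100a10*, *S100a11* and *S100a6*, among 1665 of 14402 genes. With the length trend taken out *S100a11* stood at -0.62 and was not called.

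Across libraries of the same cell type, after the mean of each tissue, strain and diet group was taken away, the short members rise and fall together. Among the 29 Tconv libraries 30 of 45 pairs passed in Pearson correlation with Benjamini-Hochberg adjustment over the 45, 29 of them positive, and 19 in rank correlation, with r from -0.441 to 0.924. All 10 pairs among *S100a4*, *S100a6*, *S100a10*, *S100a11* and *Lgals1* passed, with r from 0.812 to 0.924, rho from 0.63 to 0.895, r from 0.579 to 0.867 without the 2 farthest libraries and permutation p adjusted over 45 pairs of at most 4.5e-05, where 1e-05 is the smallest p that the permutations can give. *S100a10* and *Lgals1* are the closest pair (r 0.924, rho 0.895, 0.851 without 2 libraries, permutation p 1e-05, adjusted p 4.5e-05), ahead of *S100a6* and *Lgals1* (r 0.923, rho 0.883, 0.867 without 2 libraries, permutation p 1e-05, adjusted p 4.5e-05). The partners *S100a10* and *Anxa2*, whose proteins form a complex, were less close (r 0.574, rho 0.518, 0.491 without 2 libraries, permutation p 0.00061, adjusted p 0.00183). *Cd44* passed in 1 of its 9 pairs, a negative one with *S100a4* (r -0.441, rho -0.426, -0.398 without 2 libraries, permutation p 0.0179, adjusted p 0.0322). The 5 close genes are also the 5 shortest.
Against the percent of counts on transcripts shorter than 1000 bases, with group means removed, the 29 Tconv libraries gave r 0.913 and rho 0.848 for *S100a11*, 0.889 and 0.791 for *S100a10* and 0.86 and 0.752 for *Lgals1*, but 0.14 and 0.032 for *Vim* and -0.307 and -0.318 for *Cd44*. The genes outside the list that follow the mean of the 10 most closely in Tconv are *Crip1* (r 0.898), *Polr2k* (0.895), *Cox5b* (0.863), *Cox6b1* (0.852) and *S100a13* (0.843), with lengths of 447, 494, 569, 505 and 715 bases. They code for a LIM-domain protein, a polymerase subunit, 2 subunits of cytochrome oxidase and a further S100 protein, and each transcript is shorter than 1000 bases. In TPM 17 of the 45 pairs passed by r and 12 by rho. All 10 pairs of the 5 short members still passed by r, from 0.541 to 0.847, and 7 of the 10 by rho, but without the 2 farthest libraries r ran from 0.141 to 0.742, so some of these ties rest on 2 libraries. Among 30 Treg libraries 12 of 45 pairs passed by r and 17 by rho, and the closest was *Anxa2* with *Vim* (r 0.786, rho 0.624, 0.601 without 2 libraries, permutation p 1e-05, adjusted p 0.00045). Of the 10 pairs of short members 7 passed there, with a median r of 0.611, against 0.863 in Tconv. The 30 libraries include the 4 *Foxp3*-low ones, and whether the 2 cell types differ in these ties was not tested.

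**Figure D3:**
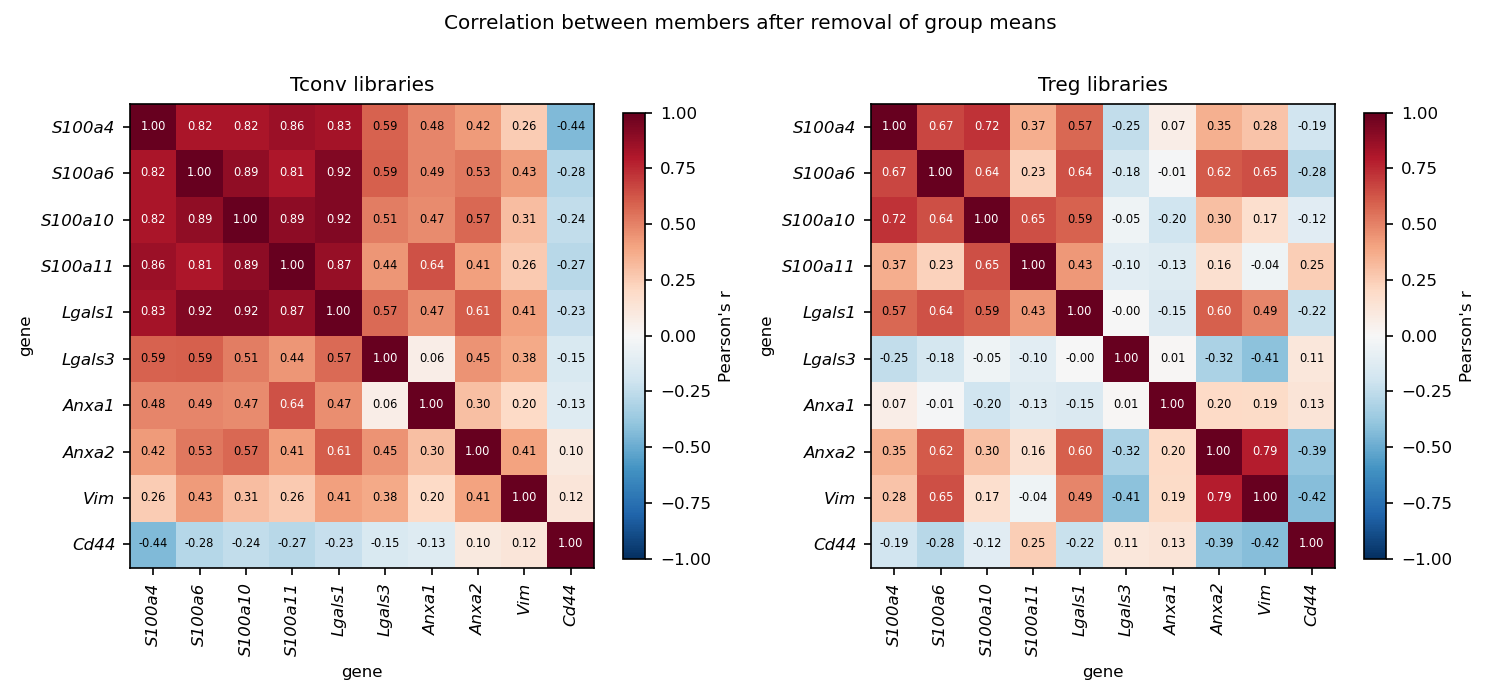
Pearson correlation of each pair of the 10 genes over Tconv libraries and over Treg libraries, with group means removed. The highest value in Tconv was 0.924, for *S100a10* with *Lgals1*.

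The relatives of the members behave in part like them. Of 12 further S100 genes 4 were tested between brain Treg and Tconv and only *S100a13* was called, lower in Treg as *S100a6* and *S100a11* were (-0.98, edgeR Benjamini-Hochberg adjusted p 0.00351). *S100a13* was also higher in Balb/c brain Tconv (1.18, edgeR Benjamini-Hochberg adjusted p 0.000592), as *S100a10* and *S100a11* were, while *S100a6*, the member nearest to it in length, was not called. *Anxa6*, the gene of a further annexin, went against *Anxa1* and *Anxa2* in brain Treg, where it was higher (0.69, edgeR Benjamini-Hochberg adjusted p 0.0324), and was lower in Balb/c brain Tconv (-1.59, adjusted p 1.45e-05). *Anxa9* was called lower in brain Treg like *Anxa1* and *Anxa2* (edgeR Benjamini-Hochberg adjusted p 0.00583), but it had 0 counts in all 14 Treg libraries and in 7 of the 13 Tconv libraries and reached at most 5.353 CPM, so no fold is given. *Lgals9*, the gene of galectin-9, was higher in hypothalamic than in brain Tconv (0.41, edgeR Benjamini-Hochberg adjusted p 0.000992), where *Lgals1* and *Lgals3* were not called. Among partners and receptors *Itgb1*, the integrin chain bound by galectins, was lower in brain Treg (-1.33, edgeR Benjamini-Hochberg adjusted p 0.0125), like 5 of the members, and its relative *Itgb7* higher (1.69, adjusted p 1.33e-06). Within a family some genes were thus called lower in brain Treg and others not.

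The lower level of the 5 called members in brain Treg goes with that of effector memory genes. The 10 effector memory genes of the marker lists summed to 7579, 12489 and 18058 CPM in brain Tconv (lowest, median, highest) and to 1499, 2529 and 4852.5 CPM in brain Treg, and 6 of them were called lower in Treg, such as *Id2* (-3.32, edgeR Benjamini-Hochberg adjusted p 9.77e-11) and *Ccl5* (-4.19, adjusted p 1.01e-06). *Anxa1* at -3.86 stands beside *Id2* and *Ccl5*, and *Anxa2*, *S100a6*, *S100a11* and *Lgals1* changed less. The gate of the Tconv, high CD44 with low CD62L protein, is itself that of effector memory T cells. The 2 CD8 T-cell genes move with this comparison too, with a summed median of 312.7 CPM in brain Tconv and 20.62 CPM in brain Treg (*Cd8a* -7.49, adjusted p 0.00256, and *Cd8b1* -3.06, adjusted p 0.0293, edgeR with Benjamini-Hochberg), and *Cd8b1* was also higher in Balb/c than in C57Bl/6J brain Tconv (2.42, adjusted p 0.0208). The gates that the study shows for brain CD4 T cells leave out cells that carry CD8a protein. Transcripts of other cell types are given by their medians. Oligodendrocyte genes had the highest, 303.5 to 409.3 CPM, with *Cnp* the most abundant and *Mog* and *Mobp* at 0, while neuron genes had at most 12.29 CPM and astrocyte genes at most 12.78 CPM. Neutrophil genes had a median of 0.0 CPM in each cell type and tissue, fibroblast and mural genes at most 2.72 CPM and endothelial genes at most 95.9 CPM, while macrophage genes summed to medians of 122 to 265.5 CPM, of which *Ccr2*, a gene that T cells also express, had the largest share. Microglial genes had medians of 152 to 310.2 CPM. Single hypothalamic Treg libraries lie far above these medians, up to 20938.6 CPM of the microglial genes and 4169 CPM of the endothelial genes in 2 of the *Foxp3*-low libraries named above. Effector memory and CD8 genes move alongside the members, and their part in the result was not tested.

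The pilot experiment gives 1 library for each of 8 conditions of hypothalamic T cells, with no replicate and so no test. Its mice were obese ob/ob mice and C57Bl/6J wild-type mice, and Balb/c Foxp3 GFP mice fed HFHS diet or SD for 16 weeks, pooled 7 or 9 to a library where the labels say so. Depth ran from 99925 to 5334511 counts. Few of the listed reads fell on genes, from 0.391% in the ob/ob CD25-high library to 17.1% in the wild-type CD25-high library. The share was 0.791% in wild-type CD4 cells and 3.84% in the SD Treg library, which limits what a single value or a 0 can show. The wild-type CD25-high library stands apart, with 18728.6 CPM of the microglial gene *P2ry12* (exact Poisson 95% interval 18612.7 to 18845). It had 0 counts of *S100a10*, *Lgals1*, *Lgals3*, *Anxa1*, *Anxa2* and *Cd44* among 5334511, so it is left out of what follows. The Balb/c T cells with low to intermediate CD44 gave 1 library on each diet. The intervals cover counting error alone and not the spread between pools, so a gap between 2 single libraries does not show an effect of diet. The 2 libraries also differ in *Foxp3*, with 1.38 CPM on HFHS diet (0.2846 to 4.033) and 72.69 CPM on SD (63.8 to 82.47), about the 75.34 CPM of the SD Treg library, and the part of this in the other values was not tested. *Anxa1* stood at 304 CPM (281 to 328) against 10.56 CPM (7.35 to 14.7), *Anxa2* at 326 (303 to 351) against 44.3 (37.5 to 52.1), *S100a4* at 226 (207 to 247) against 31.4 (25.6 to 38.01) and *Lgals1* at 675 (641 to 711) against 172.5 (159 to 187). *Vim* was the reverse, at 261 CPM (239.8 to 283) on HFHS diet and 428 CPM (406 to 451) on SD. In the Treg of the same mice the picture differs, for *S100a4* was 201.5 CPM (182.5 to 222) on HFHS diet and 556 CPM (515 to 599) on SD, and *Lgals1* 445 CPM (416 to 475) and 879 CPM (827 to 933). *Anxa1* again had the higher value on HFHS diet, 259 CPM (237.5 to 282) against 0 counts on SD, while *Lgals3* had 0 counts in each of these 2 Treg libraries. In ob/ob CD4 cells all 10 genes were above the floor of 3 counts, led by *S100a6* at 1797.5 CPM (1735 to 1862), and in wild-type CD4 cells *S100a6* stood at 4266 CPM (3998 to 4548) in a library of 220336 counts where *Anxa1*, *Lgals3* and *Cd44* had 0. That library also held 299.5 CPM of *Foxp3* (231.7 to 381.1), more than either Balb/c Treg library. In hypothalamic Tconv of the larger experiment, levels on HFHS diet differed from those on SD by 0.21 for *Lgals1* and -0.45 for *Anxa1* without being called. Those cells were gated for high CD44, so the 2 gates are not the same cells. The experiments also differ in *S100a11*. In the pilot libraries kept here it ran from 10.01 CPM (ob/ob CD25-high, 1 count) to 178.9 CPM (ob/ob CD4). *S100a10* ran from 837.6 to 2561.9 CPM in the same libraries. In hypothalamic Tconv of the larger experiment the means were 935.6 CPM for *S100a11* and 1098.3 CPM for *S100a10*. The cause of this difference was not tested.

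Of the 10 genes 8 have an entry among 27025 promoters of the RefSeq annotation of GRCm38.p6, and *S100a10* and *Lgals1* do not. The 250 bases before the start and 50 after it were searched on both strands. AP-1, the factor pair that T-cell activation switches on, binds TGANTCA, which stands in 2 of the 8, *S100a11* and *Anxa2*, and in 7.93% of all promoters. TATAAA stands in 4 of the 8, *Anxa1*, *Anxa2*, *S100a4* and *Vim*, and in 14.2% of all. CACCC, read by KLF factors, stands in 4 of the 8 and in 56.7% of all, an NF-kB site in 2 of the 8, *Lgals3* and *Vim*, and in 8.18% of all, and a CArG box in 0 of the 8 and 1.57% of all. *S100a11*, which is called in more comparisons above than any other member, is the only member with AP-1 sites at 2 places, and its 250 bases before the start (GRCm38.p6, plus strand, chr3:93520246-93520495) carry them in capitals.
S100a11: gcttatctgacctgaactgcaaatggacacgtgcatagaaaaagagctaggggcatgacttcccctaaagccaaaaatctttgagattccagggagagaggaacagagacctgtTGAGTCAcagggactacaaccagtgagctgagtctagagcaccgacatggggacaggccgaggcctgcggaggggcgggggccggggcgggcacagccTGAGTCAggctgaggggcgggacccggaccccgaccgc
*Anxa2* carries an AP-1 site and a TATA box before its start (GRCm38.p6, plus strand, chr9:69453433-69453682).
Anxa2: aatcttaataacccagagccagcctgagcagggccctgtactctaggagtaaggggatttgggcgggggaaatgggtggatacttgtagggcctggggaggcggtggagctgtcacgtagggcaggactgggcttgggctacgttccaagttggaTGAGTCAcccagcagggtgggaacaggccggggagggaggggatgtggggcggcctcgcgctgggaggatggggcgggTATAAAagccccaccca
*Anxa1*, the member with the widest gap between Treg and Tconv in brain, has a TATA box and no AP-1 site (GRCm38.p6, minus strand, chr19:20390672-20390921).
Anxa1: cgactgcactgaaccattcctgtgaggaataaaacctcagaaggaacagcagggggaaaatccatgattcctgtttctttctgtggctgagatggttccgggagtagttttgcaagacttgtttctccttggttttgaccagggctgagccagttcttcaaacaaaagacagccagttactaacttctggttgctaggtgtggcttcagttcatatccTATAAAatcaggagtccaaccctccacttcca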

How the data were processed

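RNA from T cells sorted from pooled mice was sequenced in 2 experiments, a pilot of 8 libraries (75 bp single-end) and a larger one of 59 libraries (100 bp paired-end, SMARTer kit). For the pilot the authors aligned reads with BWA-mem and deposited HTSeq counts for 24421 gene symbols. For the larger experiment the authors ran Salmon in the nf-core/rnaseq pipeline on mm10, and each deposited library lists 35034 names with their estimated counts. The authors' files also give TPM, scaled within each library by transcript length. The sources used here give no version of BWA-mem, HTSeq or Salmon itself. Here the estimated counts and the TPM were summed over the RefSeq transcript names of each gene, 34648 names (98.9%) giving 24530 genes. Counts of *S100a11* and *Lgals1* may be shared with near-identical pseudogenes in the annotation.

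Differences were tested with edgeR 4.0.16 (R 4.3.3) in quasi-likelihood models with strain, diet and, where both enter, tissue or cell type, after edgeR's filter at a count minimum of 10 and with TMM scaling. Benjamini-Hochberg adjustment ran over all tested genes, and genes with adjusted p below 0.05 are called. The fits were tested on simulated data, and the outcome is not reported here. Levels are TMM-scaled CPM, in the pilot plain CPM with exact Poisson 95% intervals of the count. A fold against a group at 0 is only a bound from a floor of 3 counts. Correlations used log2 of CPM with a pseudocount of 1, group means removed and 100000 permutations. Alternatives were DESeq2 1.42.0, its size factors, limma-voom (limma 3.58.1) with quality weights, no filter, leaving out single libraries, low-complexity or *Foxp3*-low libraries, each strain alone, pool as a block, and an offset that follows each library's trend over transcript length (lowess, span 0.3). The 10 genes and the comparison lists were chosen with earlier results of these data known. One gene of these lists is not reported here. Sums and intervals were made in Python 3.11.15. Promoters come from RefSeq on GRCm38.p6. Total counts per library ran from 1724149 to 38482277 in the larger experiment and from 99925 to 5334511 in the pilot.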

Additional observations from a re-analysis of the deposited data

Results flagged for a closer look

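Within each group of 4 libraries, a value was picked out when its gap to the nearest other value was more than 0.829 of the range of the group. By chance about 1 in 20 groups is picked out. Of 119 groups 18 were picked out. The groups use the same libraries again for each gene and some hold values near 0, so the 2 rates were not compared. Of the 18, 11 are Treg groups and 7 are Tconv groups, and in 7 of the 11 the nearest other library held less than 1 CPM.

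In brain Treg of C57Bl/6J mice on SD, pool 62_66 had *Anxa1* at 30.69 CPM (next 0.0439), *Anxa2* at 380.2 CPM (next 135) and *Lgals3* at 83.91 CPM (next 0.0439), and pool 01_05 had *S100a10* at 883.9 CPM (next 1566). In brain Treg on HFHS diet, pool 38_42 had *Lgals1* at 300.5 CPM (next 1060.0). In hypothalamic Treg of C57Bl/6J mice, *Anxa1* was 91.44 CPM in HFHS pool 33_37 (next 0.0611), *Lgals3* 22.51 CPM in HFHS pool 72_76 (next 0.0693), *Lgals1* 1002.0 CPM in SD pool 62_66 (next 288), and *Lgals3* 146.1 CPM (next 0.0) and *Cd44* 4.349 CPM (next 0.345) in SD pool 43_47. In hypothalamic Treg of Balb/c mice on SD, *Anxa2* was 139.5 CPM in pool 06_10 (next 0.0813).

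In hypothalamic Tconv of C57Bl/6J mice on SD, pool 11_15 was low in *S100a10* (519.2 CPM, next 1168.5), *S100a11* (457.5 CPM, next 1056) and *S100a4* (199.9 CPM, next 504). In those of Balb/c mice on SD, pool 32_36 was high in *Lgals1* (1281.8 CPM, next 834), *S100a6* (895.5 CPM, next 451) and *Vim* (881.0 CPM, next 599). In brain Tconv of C57Bl/6J mice on SD, pool 62_66 had *S100a4* at 360.3 CPM (next 515).

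2 results were picked out because an effect differs between groups, both of *S100a11* with adjusted p below 0.05 in edgeR after Benjamini-Hochberg adjustment, the diet effect between strains in brain Tconv (1.042 on the log2 scale) and the Treg to Tconv gap between tissues (0.974).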

How the results depend on the processing

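Members called out of 10, by setting. Treg against Tconv, hypothalamus (0 in the fit of the report): 2 with no filter, 5 with limma-voom, 2 with pool as replicate block, 2 without *Foxp3*-low libraries, 5 with the length trend taken out, 0 to 1 over single libraries left out. The same in brain (5): 8 with limma-voom, 4 with the replicate block, 1 in C57Bl/6J libraries alone, 3 to 6 over single libraries. Hypothalamus against brain, Tconv (4): 0 with the replicate block, 0 in C57Bl/6J libraries alone, 3 to 5 over single libraries. The same in Treg (0): 2 with limma-voom, 3 with the length trend taken out, among 703 of 12602 genes called, 0 over single libraries. Strain, hypothalamic Tconv (0): 1 each with DESeq2, limma-voom and the length trend taken out, among 542 of 10739, 302 of 10875 and 263 of 10875 genes called, 0 to 3 over single libraries. Strain, brain Tconv (3): 4 each with no filter, limma-voom and the length trend taken out, among 3162 of 21914, 3366 of 12287 and 2203 of 12287 genes called. The last of these shares only *S100a11* with the 3. Over single libraries it was 3 to 4, and with the length trend taken out *S100a10* stood at -0.085 and *S100a11* at -0.396, the reverse of 0.881 and 0.777. Diet by strain, hypothalamic Treg (0): 2 with DESeq2. Diet by strain, brain Tconv (1): 5 with DESeq2, 2 with its size factors (146 of 12287 genes called), 4 with no filter (300 of 21914), 4 with limma-voom, 0 with the length trend taken out, 0 to 4 over single libraries. Cell type by tissue (1): 0 with DESeq2, its size factors, no filter or the length trend taken out, 3 with limma-voom and 1 with the replicate block, *S100a11* not among them, 3 without *Foxp3*-low libraries, and *S100a11* at -0.617 with the length trend taken out, the reverse of 0.974. Pairs passing in Tconv (30): 17 in TPM. Pilot levels relative to the median library, CPM and then size factors: ob/ob CD4 1.56 and 1.5, ob/ob CD25-high 1.55 and 1.34, wild-type CD4 2.08 and 1.99, wild-type CD25-high 0.0346 and 0.103, Balb/c CD44-low HFHS 0.918 and 0.992 and SD 0.391 and 0.379, Treg HFHS 0.679 and 0.865 and SD 1.08 and 1.01. Where these settings move a result, the cause was not tested.

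The limits of these data are small groups of 2 to 4 pools, strain joined with sex, 4 hypothalamic Treg libraries with little *Foxp3*, and a surplus of short transcripts in Balb/c brain Tconv. Fits that take out a length trend also take out any real difference shared by short genes. Limma-voom moved the median log2 fold change of all genes by -3.01 and the replicate block by -4.28 in hypothalamic Treg against Tconv, and in cell type by tissue limma-voom moved it by -1.45, the replicate block by -0.98, no filter by 0.725, DESeq2 by -0.269, size factors by -0.18 and the length trend by -0.04. Libraries of the same pool number correlated between -0.048 and 0.066 after group means were removed, which does not tell whether they hold the same mice. Leave-one-out fits of cell type by tissue and of diet by strain other than in brain Tconv were not run.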
